A study of Chenopodium quinoa with 9 samples.

Results

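Leaf was set against stem in Chenopodium quinoa, which is grown for its seeds, by messenger RNA sequencing of 3 leaf and 3 stem libraries, which are 6 of the 9 libraries of the series. The plants, yellow bitter quinoa, grew in an experimental field in Chengdu with no treatment described, and were sampled in August after sowing in March. Each leaf or stem library came from a pool of 10 plants out of 30, and the same pools supplied both organs as well as root, which enters here for comparison of levels and in the estimate of spread. The genes compared were those with adequate counts in the leaf and stem libraries, 34003 of the 54238 in the deposited tables. Of these, 28839 carry an AUR62 identifier and 5164 another one (non-AUR62 genes).

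The leaf is the main site of photosynthesis, where chloroplasts fix carbon and where light-harvesting and Calvin cycle proteins are made in bulk. The stem carries water and minerals upward in the xylem and sugars in the phloem, and it supports the shoot with lignified secondary walls. Young stems of many plants are green and hold chloroplasts too, so both organs share part of the photosynthetic programme. Both were taken whole, so a lower level can come from fewer cells of a type or from less RNA per cell, and these cannot be told apart. Gene products are not named here (0 of the 54238 were found in a reference table of 58882 quinoa genes). The function of each gene is therefore not stated, and the organ labels were not checked against marker genes.

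The leaf libraries held 17554727, 20887315 and 22035718 counts and the stem libraries 20835559, 18719390 and 24846346. Genes with at least 1 count numbered 39169 to 39875 in leaf and 37466 to 40587 in stem, with the lowest number in stem replicate 1. Levels are given below as FPKM (fragments scaled to gene length and library size, as deposited), for each library in replicate order, and the tests used the counts. Fold changes are leaf over stem unless the sentence says otherwise, and errors are SD over 3 pools. Near-identical gene copies of this allotetraploid may have shared reads, which makes the value of any one gene uncertain.

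Leaf exceeded stem in 2402 of the 34003 tested genes (7.06%) and was below it in 2103 (6.18%) (edgeR quasi-likelihood F-test, Benjamini-Hochberg adjusted p below 0.05). Genes higher in leaf had a median change of 1.68 on the log2 scale (quartiles 1.21 and 2.38), and genes lower in leaf a median size of 2.49 (quartiles 1.55 and 3.97). Changes of at least 16-fold were seen in 198 of the higher genes and 483 of the lower ones, and changes of at least 2-fold in 2078 and 1925. The higher genes were abundant, with a median of 42.5 CPM in leaf and 14.8 CPM in stem (CPM is the count relative to the library size after TMM scaling). The lower genes were sparse in leaf, with a median of 1.62 CPM there and 11.4 CPM in stem. The plot of change against level shows the same asymmetry.

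**Figure D1:**
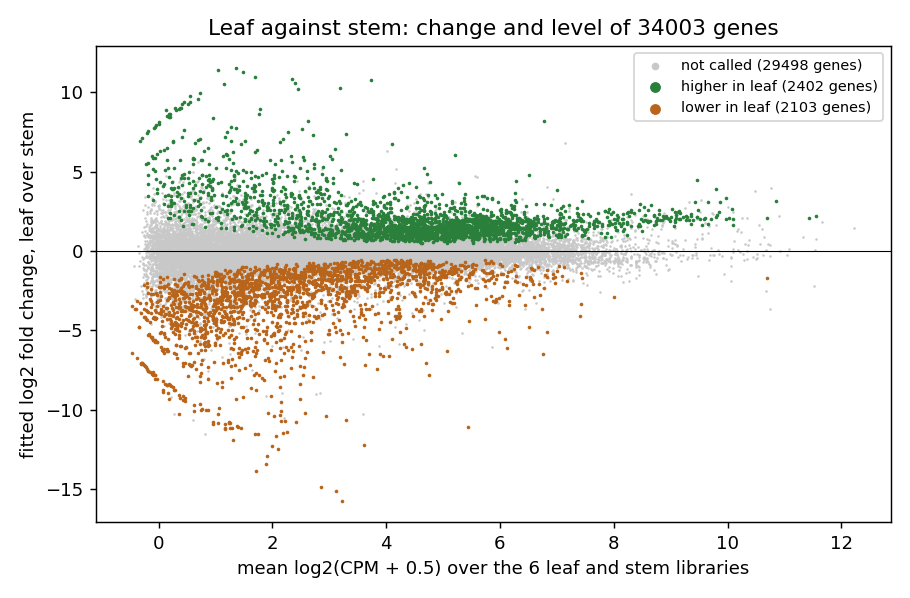
Fitted log2 fold change (leaf over stem) against mean log2(CPM + 0.5) over the 6 leaf and stem libraries for the 34003 genes tested, 1 point per gene. The 2402 genes higher in leaf lie mostly at middle and high levels, while many of the 2103 lower genes lie at low levels and reach larger changes.

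The share of genes called varied with level in opposite ways for the 2 directions. Tested genes were divided into 5 classes of equal size by their mean CPM over the 6 libraries. In the class with the lowest level (0.268 to 2.75 CPM), 2.62% were higher in leaf and 7.9% lower. In the class with the highest level (32.3 to 6877 CPM), 16.4% were higher in leaf and 4.53% lower. By gene length the shares moved less. In the class of the shortest genes (105 to 864 bp) 6.82% were higher and 6.74% lower, and in that of the longest genes (2480 to 16681 bp) 5.29% were higher and 5.19% lower. Of the non-AUR62 genes, 2.92% were higher in leaf and 5.89% lower, against 7.81% and 6.24% of the AUR62 genes. These shares were not tested.

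As a fraction of all counts, the genes higher in leaf took 26.4%, 21.0% and 29.4% in the leaf libraries and 5.36%, 8.67% and 10.9% in the stem libraries. The genes lower in leaf took 1.12%, 1.28% and 1% in leaf and 9.37%, 6.01% and 6.10% in stem. Both sets were chosen on these libraries, so the shares describe their weight in each organ and are not support for the difference. In root, which the contrast did not use, the first set took 3.92% to 4.55% of counts and the second 10.3% to 12.5%. Stem replicate 1 was the stem library nearest to root in both shares.

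The libraries of the organs did not overlap for 2389 of the 2402 genes higher in leaf and for 2072 of the 2103 lower ones. Over all tested genes, every leaf library lay above every stem library for 16.2% and below for 13.9%, which exceeds the percentages called (7.06% and 6.18%). The direction was the same in all 3 same-numbered pairs of libraries for 2399 genes higher in leaf and for 2094 lower ones. A gene whose organs do not overlap has the same direction in every pair, so these counts largely follow from those without overlap. They are not further support for the calls, and the matching share over all tested genes is not given. Among the called genes, 0 counts in every library of the lower organ were rare. Of the genes higher in leaf, 32 had 0 counts in all 3 stem libraries, and 22 of these had 0 in root as well. Of the genes lower in leaf, 73 had 0 counts in all leaf libraries, and 1 of these also had 0 in root. Such genes passed the count filter through the other organ alone. Matching numbers over all tested genes are not given, so nothing is read from these counts.

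The number of calls depended on how the spread was estimated and on single libraries. The fit used all 9 libraries, and the fit of the 6 leaf and stem libraries alone called 771 higher and 800 lower. With the pool as a block the numbers were 1448 and 1300. Without leaf replicate 1 they were 872 and 867, without leaf replicate 3 they were 950 and 1014, and dropping stem replicate 2 or root replicate 2 left 1212 or 1449 calls toward leaf. Calls toward leaf made up 53.3% of the total, against 63.4% with limma on log2(FPKM + 1) and 36.6% with glmTreat, which asks for more than a 2-fold change.

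**Figure D2:**
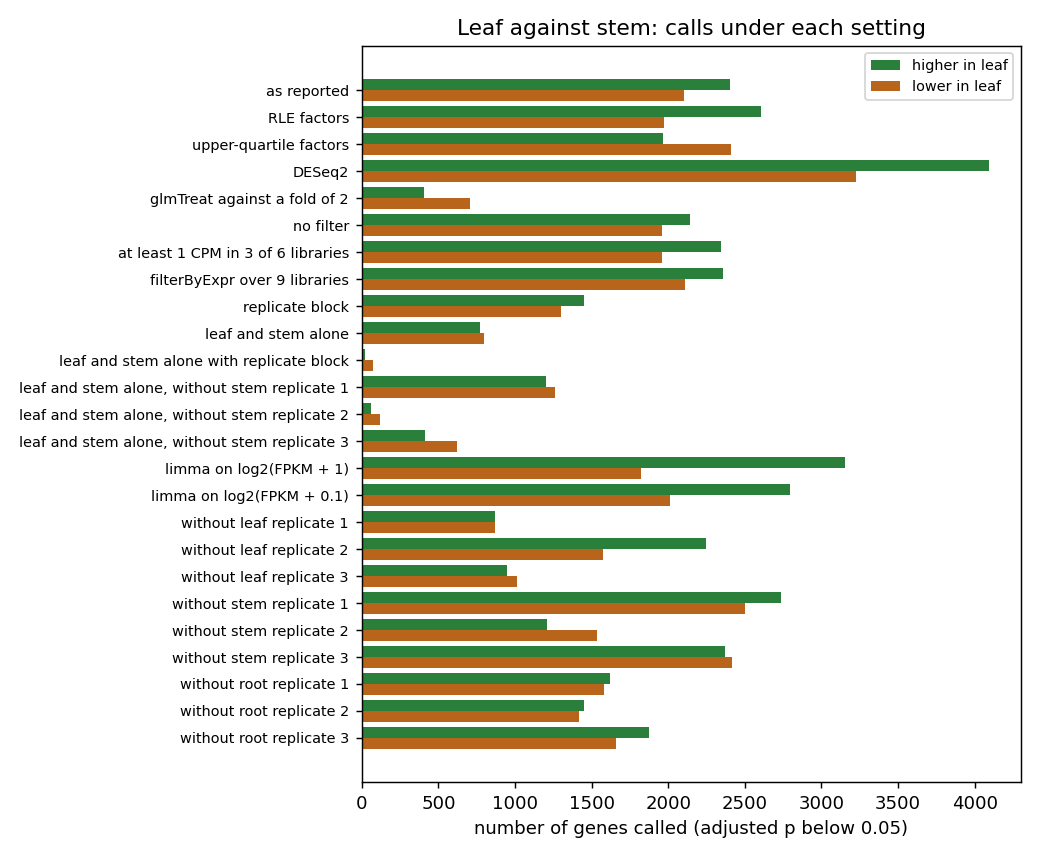
Number of genes called higher (upper bar of each pair) and lower (lower bar) in leaf than in stem under each setting of the analysis. The calls as reported are 2402 and 2103, DESeq2 gives the largest numbers at 4094 and 3227, and the leaf and stem libraries alone with the pool as a block give the smallest at 21 and 72.

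A smaller set of genes was called in the same direction in the reported fit and in each of 13 other fits, namely the block, the 6 libraries alone, DESeq2, limma on log2(FPKM + 1) and the 9 fits that leave out a library. It held 594 genes higher in leaf (24.7% of those called) and 636 lower (30.2%). This set was drawn up after the calls were seen and the fits share libraries, so it ranks genes by how little their call depended on these 13 settings. The 13 fits do not include leaf and stem alone with the pool as a block, which made 88 (1.95%) of the reported calls again. Nor do they include glmTreat, which made 1116 (24.8%) again. Its members had a median change of 2.03 on the log2 scale where higher in leaf and 3.41 in size where lower.

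The members of this set with the widest gap in mean FPKM toward leaf were abundant in both organs. A non-AUR62 gene had 3253, 3529 and 2367 FPKM in leaf and 341, 617 and 485 FPKM in stem (log2 fold change 2.63, SE 0.37, edgeR adjusted p = 0.00497). AUR62008681 had 2181, 2032 and 2282 FPKM in leaf and 473, 426 and 659.5 FPKM in stem, at 2165 ± 126 against 519.6 ± 123 (4.09-fold, edgeR adjusted p = 0.0109). All leaf libraries lay above all stem libraries for both genes, and in stem the values of the 3 pools stayed within a factor of 2 of each other. AUR62018544 had 2364, 1452 and 2757 FPKM in leaf and 653, 465 and 476 FPKM in stem (4.05-fold, edgeR adjusted p = 0.00886). AUR62016835 had 1760.3, 1779 and 2682 FPKM in leaf and 47.6, 254 and 123 FPKM in stem (14.3-fold, edgeR adjusted p = 0.00645), with its lowest value in stem replicate 1. In root these 4 genes were not absent, with 94.5 to 1681 FPKM.

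The members with the widest gap toward stem were far less even among the stem pools. AUR62025161 had 2.97, 1.43 and 12.2 FPKM in leaf and 32853, 2115 and 1096 FPKM in stem (2192-fold higher in stem by the fitted value, edgeR adjusted p = 0.00899). Stem replicate 1 was 15.4-fold above the higher of the other stem libraries, and without it the log2 fold change was -8.20 in place of -11.10 (edgeR adjusted p = 0.0032). Without leaf replicate 3, which had the highest leaf value, it was -12.46 (edgeR adjusted p = 0.0294). AUR62010620 had 0.219, 0 and 0.434 FPKM in leaf and 2798, 355 and 43.9 FPKM in stem (log2 fold change -12.24, SE 2.04, edgeR adjusted p = 0.0085). Each stem library exceeded each leaf library for both, and both had higher levels in root, at 10651 to 27086 FPKM for AUR62025161 and 817 to 3384 FPKM for AUR62010620, than in stem replicates 2 and 3. AUR62039067 had 11.1, 7.77 and 19.2 FPKM in leaf and 1015, 213 and 498 FPKM in stem (46.0-fold higher in stem, edgeR adjusted p = 0.00488). AUR62010975 had 51.1, 36.2 and 53.3 FPKM in leaf and 304, 459.8 and 943.5 FPKM in stem (12.4-fold higher in stem, edgeR adjusted p = 0.00395). Of the 4, AUR62010975 alone was lower in root than in leaf, at 8.09 to 13.7 FPKM.

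The genes with the smallest adjusted p varied little within an organ beside the gap between the organs. The choice by p favours such genes, so their evenness is a description only. AUR62018940 had 46.5, 35.2 and 37.4 FPKM in leaf and 1.56, 1.85 and 1.58 FPKM in stem (23.3-fold, edgeR adjusted p = 0.000932), and at most 0.0329 FPKM in root. AUR62024047 had 61.0, 44.3 and 73.7 FPKM in leaf and 4.04, 5.69 and 5.82 FPKM in stem (11.3-fold, edgeR adjusted p = 0.000932). AUR62001201 had 20.1, 18.2 and 19.2 FPKM in leaf and 5.39, 5.69 and 5.32 FPKM in stem (3.43-fold, edgeR adjusted p = 0.00153). For each of them stem replicate 1 lay close to the other stem pools. On the side of stem, AUR62034981 had 0 counts in every leaf library and 22.8, 23.4 and 22.9 FPKM in stem, at least 174-fold higher in stem when leaf is taken at 3 counts per library (edgeR adjusted p = 0.000568). AUR62007882 had 0.362, 0.611 and 0.638 FPKM in leaf and 9.43, 10.9 and 10.1 FPKM in stem (19.0-fold higher in stem, edgeR adjusted p = 0.000748), and 62.1 to 82.6 FPKM in root. A long non-AUR62 gene of 12651 bp had 0.099, 0.0795 and 0.106 FPKM in leaf and 2.59, 1.75 and 1.90 FPKM in stem (22.3-fold higher in stem, edgeR adjusted p = 0.00051). These 6 genes belong to the set called in the reported fit and the 13 others.

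**Figure D3:**
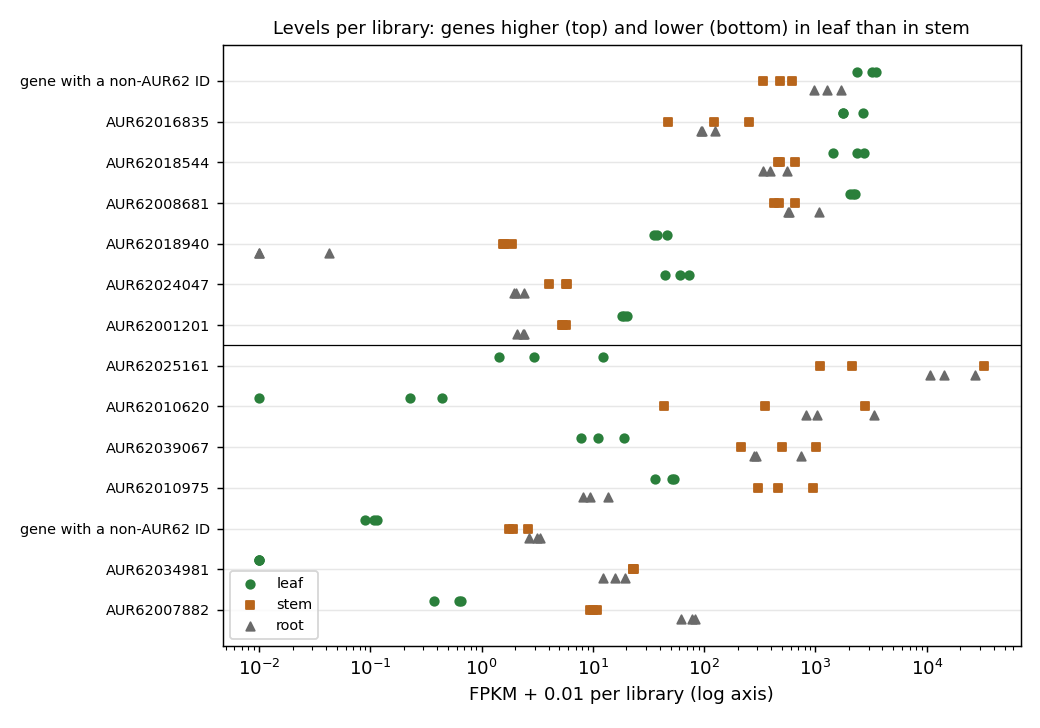
FPKM + 0.01 per library on a log axis for 14 genes, with leaf as circles, stem as squares and root as triangles, 3 libraries each. Leaf and stem libraries do not overlap for any gene, those above the line are higher in leaf and those below it lower, and the 3 stem squares spread over more than a factor of 10 for AUR62025161 and AUR62010620 and lie on top of each other for AUR62034981.

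The called genes with the largest gaps in mean FPKM toward leaf were among its abundant transcripts, and the calls of all 5 were lost in several other fits. AUR62009677 had 10435, 4867 and 11126 FPKM in leaf and 2023, 1185 and 2396 FPKM in stem (4.63-fold, edgeR adjusted p = 0.0419). AUR62001880 had 9130.1, 4542.5 and 8886 FPKM in leaf and 1674, 1373 and 2227 FPKM in stem (4.20-fold, edgeR adjusted p = 0.0334). The 2 genes have the same length of 804 bp, moved alike over the 6 libraries and were at 0 to 0.193 FPKM in root, so shared reads between them cannot be told apart from shared levels. AUR62042566 had 5992, 2040.5 and 9174 FPKM in leaf and 263, 653 and 998 FPKM in stem (8.84-fold, edgeR adjusted p = 0.0267). AUR62018048 had 6507, 8864 and 10147 FPKM in leaf and 24.7, 891 and 737 FPKM in stem (15.1-fold, edgeR adjusted p = 0.0444), and AUR62015894 had 8676, 3576 and 7529.9 FPKM in leaf and 0, 64.4 and 0.558 FPKM in stem (296-fold, edgeR adjusted p = 0.0483). Leaf lay above stem in every library for all 5 of them.

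With the pool as a block, the calls of these 5 genes were lost, with an edgeR adjusted p of 0.0824 for AUR62009677, 0.0755 for AUR62001880, 0.0543 for AUR62042566, 0.0626 for AUR62018048 and 0.107 for AUR62015894. The call of AUR62018048 was also lost without any 1 library other than stem replicate 1 (edgeR adjusted p from 0.0655 to 0.11). That of AUR62015894 was lost without any 1 library other than stem replicate 1 or stem replicate 2 (0.0642 to 0.107), and without stem replicate 2 its log2 fold change was 14.29 in place of 8.21. Those of AUR62001880 and AUR62042566 were lost without leaf replicate 1, leaf replicate 3, stem replicate 2 or root replicate 2 (0.0521 to 0.106). That of AUR62009677 was lost without these 4, stem replicate 3 or root replicate 1 (0.0527 to 0.125).

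On the side of stem, the largest absolute gaps after AUR62025161 were in genes that stem replicate 1 often led. AUR62029016 had 0.27, 0 and 0 FPKM in leaf and 10251, 96.2 and 153 FPKM in stem (edgeR adjusted p = 0.0117). It rested on 1 count in leaf, which gives stem at 39624 times leaf (exact Poisson 95% interval of that count, 7112 to 1565060.2). Its log2 fold change was -10.31 without stem replicate 1 and -17.23 without leaf replicate 1, which held the count, in place of -15.12. Its call was lost without leaf replicate 1 (0.0691) or leaf replicate 3 (0.0552). AUR62037551 had 31.4, 9.70 and 34.8 FPKM in leaf and 6206, 367 and 39.5 FPKM in stem (log2 fold change -6.47, edgeR adjusted p = 0.0389), and stem replicate 3 lay just above the leaf libraries. Without stem replicate 1 its log2 fold change was -3.04 (edgeR adjusted p = 0.054). Its call was also lost with the block (0.143) and without any 1 leaf or root library (0.0619 to 0.124).

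The other pair in this group was more even. AUR62041295 had 395, 163 and 327 FPKM in leaf and 4248, 688.5 and 4041 FPKM in stem (10.3-fold higher in stem, edgeR adjusted p = 0.016), so here stem replicate 2 was the low one. Its call was lost without leaf replicate 1 (0.0532) or leaf replicate 3 (0.0618). AUR62009037 had 533, 242 and 393 FPKM in leaf and 5683, 2177 and 888.5 FPKM in stem (7.64-fold higher in stem, edgeR adjusted p = 0.0307), and without stem replicate 1 its log2 fold change was -2.01 in place of -2.93. Its call was lost with the block (0.0599), without any 1 leaf library, without stem replicate 2 and without root replicate 2 (0.051 to 0.106).

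The largest fold changes toward leaf came from genes of low or uneven level. A non-AUR62 gene had 7.05, 5.45 and 9.43 FPKM in leaf and 0 counts in stem, at least 110.2-fold higher in leaf against 3 counts per library (edgeR adjusted p = 0.0113), and it was the most even of this group. AUR62000076 had 5.61, 48.3 and 16.7 FPKM in leaf and 0.0193, 0 and 0.0123 FPKM in stem, with leaf at 2185 times stem (605 to 18043 by the exact Poisson 95% interval of the 2 stem counts, edgeR adjusted p = 0.00258). AUR62012383 had 53.1, 2.78 and 128 FPKM in leaf and 0, 0 and 0.0505 FPKM in stem, with leaf at 3622 times stem (650.1 to 143068 by the interval of the single stem count, edgeR adjusted p = 0.00826). Both stood highest in a different leaf pool, and without it the log2 fold change was 9.77 in place of 10.83 for AUR62000076 and 9.85 in place of 10.98 for AUR62012383. Without stem replicate 3, which held its count, AUR62012383 had 12.65.

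AUR62028781 had 36.0, 4.20 and 52.6 FPKM in leaf, and AUR62044157 had 21.4, 1.07 and 2.10 FPKM, both with 0 counts in stem. Leaf replicate 1 carried AUR62044157, whose bound fell to 23.7-fold without it, against 123-fold with it (edgeR adjusted p = 0.0188 with all libraries). The call of AUR62044157 was lost in 6 alternatives. These included leaf and stem alone (edgeR adjusted p = 0.0761) and limma on log2(FPKM + 1) (limma adjusted p = 0.0642). For AUR62028781 the bound was 135-fold (edgeR adjusted p = 0.0249) and 87.3-fold without leaf replicate 3, and its call was lost without leaf replicate 1 (0.0805) or leaf replicate 3 (0.0736).

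Besides AUR62029016 with its single leaf count, the largest fold changes toward stem were in 4 genes with 0 counts in all leaf libraries, all present in root. AUR62039860 had 644, 30.7 and 125 FPKM in stem and 1973.5 to 2832 FPKM in root, so the stem level was at least 1903 times that of leaf (edgeR adjusted p = 0.00733). AUR62037366 had 388, 17.7 and 137 FPKM in stem and 2966 to 4538 FPKM in root, so the stem level was at least 1042 times that of leaf (edgeR adjusted p = 0.00736). Both were highest in stem replicate 1 and lowest in stem replicate 2, and root exceeded every stem library. Without stem replicate 1 the bounds were 554-fold and 443-fold. AUR62006136 had 80.2, 24.7 and 1.17 FPKM in stem (at least 379-fold, edgeR adjusted p = 0.0231) and 139.5-fold as the bound without stem replicate 1. A non-AUR62 gene had 244, 7.98 and 3.32 FPKM in stem (at least 515-fold, edgeR adjusted p = 0.0317), with a bound of 34.3-fold without stem replicate 1. The call of AUR62006136 was lost with the block (0.0748) and without leaf replicate 1 or 3 (0.0632 and 0.065), and that of the non-AUR62 gene with the block (0.0754) and without any 1 leaf or root library (0.0554 to 0.0858).

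In root the median of the genes called toward leaf was 6.10 CPM, and for 1803 of the 2402 (75.1%) the root mean lay below the stem mean. Genes lower in leaf had a median of 13.6 CPM in root, and for 1159 of the 2103 (55.1%) the root mean lay above the stem mean. For 488 of the genes higher in leaf the root mean lay between the organs and for 111 above leaf. For 879 of the genes lower in leaf it lay between the organs and for 65 below leaf. The genes were chosen on their leaf and stem values, and the order of the organs was not tested. Matching shares over all tested genes are not given, and whether the called genes differ from the rest here was not examined.

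Among the genes that were not called, the 3 with the highest mean FPKM over leaf and stem varied widely between the pools of 1 organ or both. AUR62003223 had 12032, 298 and 1154 FPKM in leaf and 75327, 84111 and 7313.5 FPKM in stem (log2 fold change -3.66, edgeR adjusted p = 0.153). Leaf replicate 1 exceeded stem replicate 3, so the organs overlapped, and without leaf replicate 1 the log2 fold change was -6.29 (edgeR adjusted p = 0.0677). AUR62010822 had 28043, 40659.7 and 32634 FPKM in leaf and 1741, 12935 and 12795 FPKM in stem (3.61-fold, SE 0.71 on the log2 scale, edgeR adjusted p = 0.129). Its organs did not overlap, and stem replicate 1 was 7.28-fold below the lower of the other stem libraries. AUR62002998 had 38180.0, 23620.5 and 17359 FPKM in leaf and 4963, 0 and 9875 FPKM in stem (edgeR adjusted p = 0.453), with no count at all in stem replicate 2. Without stem replicate 2 its log2 fold change was 1.78, and without stem replicate 3 it was 3.38, in place of 2.39.

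The stem libraries were less alike than the leaf libraries. The SD of log2(CPM + 0.5) within an organ had a median over genes of 0.46 in stem against 0.29 in leaf, and it was larger in stem for 69.8% of tested genes. Between stem replicates 2 and 3, 10.7% of genes were at least 2-fold apart, which is within the range of the leaf pairs (6.55% to 14.1%). Stem replicate 1 was at least 2-fold apart from stem replicate 2 in 30.5% of genes and from stem replicate 3 in 35.6%. Of the 100 genes with the highest FPKM in each library, stem replicates 2 and 3 shared 70, all 3 leaf libraries 62 and all 3 stem libraries 40. Stem replicate 1 shared 25 to 36 of its top 100 with a leaf library, and stem replicates 2 and 3 shared 43 to 66.

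For the called genes, the median difference was largest in size against stem replicate 1. In log2(CPM + 0.5), the leaf mean minus stem replicates 1, 2 and 3 had medians of 1.88, 1.51 and 1.35 over the genes called toward leaf, and of -1.89, -1.75 and -1.63 over those called toward stem. Over all tested genes the medians were 0.00, -0.02 and 0.01. The calls were made on these libraries, so the direction is fixed by the choice of genes and only the order of the stem libraries is described. With no such choice, 7156 genes were at least 2-fold higher and 6219 at least 2-fold lower in leaf than in stem replicate 1. The numbers were 4127 and 3678 against stem replicate 2, and 3695 and 3333 against stem replicate 3.

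**Figure D4:**
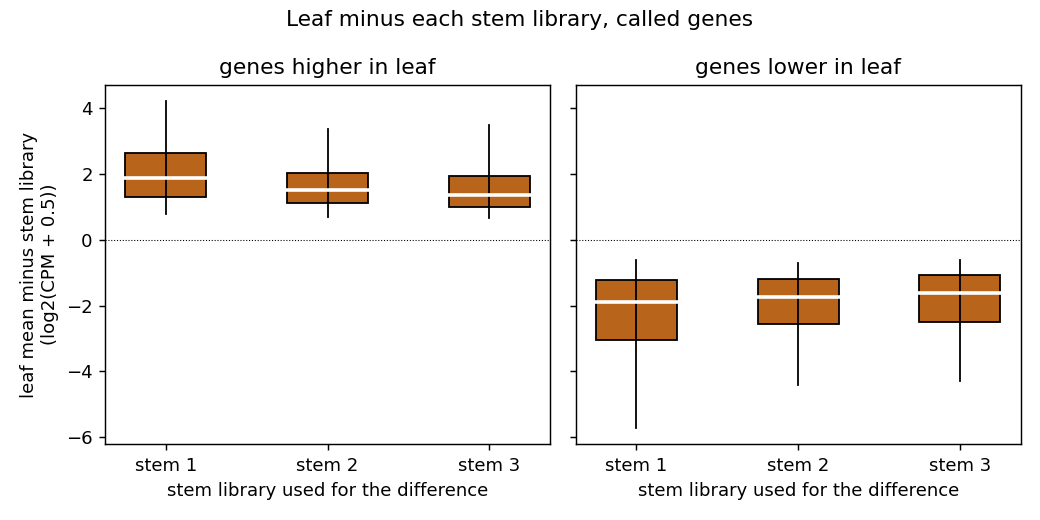
Leaf mean minus each stem library in log2(CPM + 0.5) for the genes called higher (left) and lower (right) in leaf, with the white line at the median, the box over the quartiles and the line from the 5th to the 95th percentile over genes. The medians are 1.88, 1.51 and 1.35 for the higher genes and -1.89, -1.75 and -1.63 for the lower genes, with the widest range against stem replicate 1 in both.

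Direction was carried over to stem replicate 1 less often on the side of stem. Of the 2517 genes at least 2-fold higher in leaf than in both stem replicates 2 and 3, 2060 (81.8%) were also at least 2-fold higher than in stem replicate 1, and 181 (7.19%) went the other way. Of the 2246 genes at least 2-fold lower in leaf than in both, 1480 (65.9%) were also at least 2-fold lower than in stem replicate 1, and 333 (14.8%) went the other way. With stem replicate 3 as the library left for comparison the shares at least 2-fold were 70.4% and 64.7%, and with stem replicate 2 they were 83.0% and 83.8%. The shares that went the other way were 4.96% and 9.48% for stem replicate 3, and 3.26% and 4.02% for stem replicate 2. These shares were not tested.

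Genes that set 1 library apart from the other 5 were concentrated in stem replicate 1. In it, 431 genes were at least 4-fold above each of the 5 other leaf and stem libraries (with at least 10 CPM in it), and 166 genes were at least 4-fold below each of them (with at least 10 CPM in all 5). In each of the other libraries, 9 to 44 genes stood above and 4 to 47 below. The 431 genes took 9.57% of the counts of stem replicate 1 and 0.266% to 1.29% in the other 5 libraries. Of the 431 genes, 72 were non-AUR62 genes, against 5164 of the 34003 genes tested. Of the 431 genes, 123 (28.5%) were called lower in leaf, against 6.18% of all tested genes, and of the 166 genes, 16 (9.64%) were called higher in leaf, against 7.06%. The genes were picked on the same libraries, so nothing is read from these shares.

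Many of these genes had levels in root on the side of stem replicate 1. Of the 431 genes, 216 (50.1%) were at least 2-fold higher in root than in the mean of the 5 other libraries, against 11.7% of all tested genes. Of the 166 genes, 126 (75.9%) were at least 2-fold lower in root than in that mean, against 19.0% of all tested genes. The smaller sets of stem replicates 2 and 3 had 73.9% of 23 and 45.5% of 44 genes above on that side, and 95.7% of 47 and 80.6% of 36 genes below. Leaf replicates 1, 2 and 3 had 22.2% of 9, 31.6% of 38 and 10% of 10 genes above, where 9.83% to 10.4% of all tested genes were, and 25% of 8, 75% of 4 and 60% of 5 genes below, where 19.3% to 19.7% were. A lean toward root was thus seen in sets of other libraries too, and none of these shares was tested. For the 431 genes the median in stem replicate 1 was 50.3 CPM, against 6.79 to 9.03 CPM in the root libraries, 1.25 to 1.79 CPM in the leaf libraries and 4.70 and 2.15 CPM in stem replicates 2 and 3. For the 166 genes it was 3.84 CPM, against 7.85 to 8.63 CPM in root, 72.4 to 85.1 CPM in leaf and 37.2 and 41.5 CPM in stem replicates 2 and 3. The median of the 431 genes in stem replicate 1 thus exceeded that in root as well. What part a difference in tissue, in sampling or in handling had in stem replicate 1 was not tested.

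**Figure D5:**
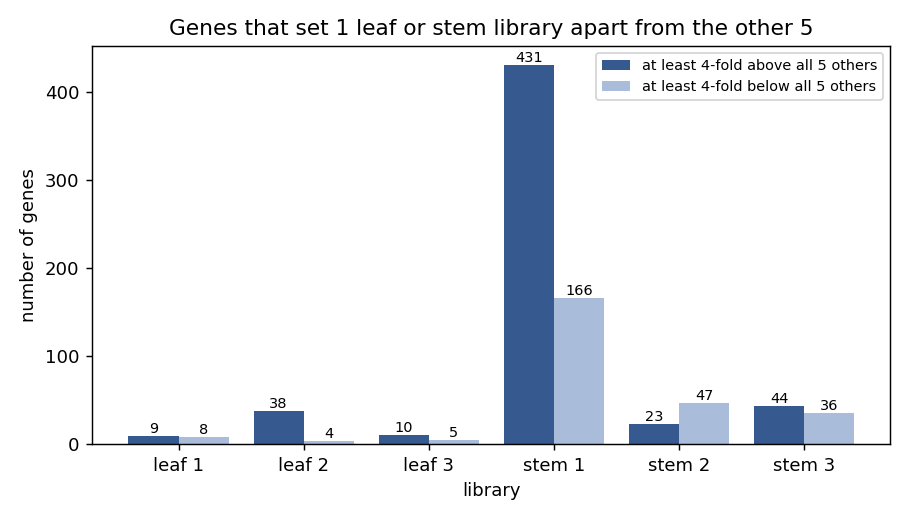
Number of genes at least 4-fold above (dark) or below (light) each of the 5 other leaf and stem libraries, for each of the 6 libraries. Stem replicate 1 has 431 and 166 such genes, and no other library has more than 47 of either kind.

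Single genes show how far stem replicate 1 stood apart. A non-AUR62 gene had 8.49, 0.609 and 0.182 FPKM in leaf and 11109 FPKM in stem replicate 1, against 45.6 and 6.90 FPKM in stem replicates 2 and 3, and 106 to 383 FPKM in root. Another had 3.57, 1.46 and 0.326 FPKM in leaf and 465.0, 0.28 and 0.136 FPKM in stem, with 0 in all root libraries, so it was seen almost only in 1 library. AUR62014873 had 2.26, 0 and 0 FPKM in leaf and 1161, 4.95 and 0.281 FPKM in stem. One more non-AUR62 gene had 6.26, 0.269 and 0 FPKM in leaf and 1129, 1.85 and 0.117 FPKM in stem. In these 4 genes stem replicate 1 was 209 to 422 times the higher of the other stem libraries (0.5 CPM added to each), and none was called (edgeR adjusted p from 0.0584 to 0.2).

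In the other direction, AUR62022156 had 22.9, 436 and 4596 FPKM in leaf and 0.0982, 494 and 413 FPKM in stem. AUR62014183 had 162, 17.8 and 30.4 FPKM in leaf and 0, 137 and 117.5 FPKM in stem, and a steady 53.9 to 60.4 FPKM in root. AUR62003765 had 24.5, 37.4 and 22.2 FPKM in leaf and 0.949, 168 and 112 FPKM in stem. A non-AUR62 gene had 3606, 519 and 2937 FPKM in leaf and 2.29, 3704 and 649 FPKM in stem. For all 4 genes stem replicate 1 lay below every other leaf, stem and root library. It was 83.9 to 424 times below the lower of stem replicates 2 and 3 after 0.5 CPM was added to each. None of the 4 was called between leaf and stem (edgeR adjusted p from 0.368 to 0.925), and they were chosen for these values, which are a description.

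Leaving out stem replicate 1 raised the number of calls and changed part of the list. In the fit of the 8 other libraries, 2733 genes were higher in leaf and 2503 lower. Of the reported calls, 3870 (85.9%) were made again in the same direction, 635 were not, and 1366 were made that the reported fit lacks. With stem replicate 3 left out in its place, 2372 genes were higher and 2416 lower, with 822 reported calls lost and 1105 added. With stem replicate 2 left out in its place, the numbers were 1212 and 1536. With the leaf and stem libraries alone, dropping stem replicate 1 gave 1204 and 1264 calls against 771 and 800 with it, while dropping stem replicate 2 gave 59 and 122 and dropping stem replicate 3 gave 413 and 625.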

How the data were processed

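Raw read counts and FPKM were deposited by the authors for 54238 genes, per the file headers. Per the submitters' processing notes the tools were TopHat2 2.0.12 and Bowtie2 2.0.6. How reads were counted, the strand setting and the build are not given in the sources used. Count over FPKM gave gene lengths within 0.01 bp of a whole number for 100% of the 46576 genes with a count, and library sizes 0.773 to 1.10 times the totals in leaf and stem. Genes passed filterByExpr over the 6 leaf and stem libraries. A robust edgeR 4.0.16 quasi-likelihood model (R 4.3.3) with TMM factors and tissue as its factor was fitted to all 9 libraries, and p-values were adjusted over the 34003 genes. Standard errors are the fitted change over the square root of F. The procedure was run on simulated counts with the same spread in every organ and no library set apart. That run cannot show how it performs with the uneven stem libraries here. Alternatives used DESeq2 1.42.0 and limma 3.58.1. Pairing rests on the labels' protocols, in which the organs come from the same pools, and on the replicate numbers in the sample titles. The deviations of same-numbered leaf and stem libraries correlated at 0.100, -0.113 and 0.098 over genes. Those of libraries with unlike numbers correlated at -0.154 to 0.114, so the values do not mark the same-numbered pairs. P-values measure the spread between pools within an organ, taken over leaf, stem and root together, and the reported fit does not pair the organs. The median SD of log2(CPM + 0.5) was 0.20 in root, against 0.29 in leaf and 0.46 in stem.

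Named genes were called, averaged 10 CPM or more in the organ where they were higher, and differed in the same direction in 3 pairs. Of these, those with the largest fold (5 per direction), FPKM gap (5) and smallest p (3) were taken, with the 4 most extreme ratios of stem replicate 1 each way and the 3 most abundant uncalled genes. From the smaller set called in the same direction in every chosen fit, the members with the widest FPKM gap each way were added. Lists by function and tissue markers needed product names and could not be applied. Members and rules were chosen with earlier results of these data known. Intervals and bounds cover counting error only.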

Additional observations from a re-analysis of the deposited data

How the results depend on the processing

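Calls toward leaf and toward stem stayed within 1.5 times of 2402 and 2103 under RLE and upper-quartile factors, the 3 other filters and both limma fits. They were 4094 and 3227 with DESeq2, 409 and 707 with glmTreat, 1448 and 1300 with the replicate block, and 771 and 800 with leaf and stem alone. They were 21 and 72 with leaf and stem alone and the replicate block. With leaf and stem alone they were 1204 and 1264 without stem replicate 1, 59 and 122 without stem replicate 2, and 413 and 625 without stem replicate 3, the last 2 fits added after the data were seen. Leaving out each library in turn gave 872 to 2733 higher and 867 to 2503 lower. Apart from glmTreat, whose null is a 2-fold change, and from fits with fewer samples, the cause was not tested. The median log2 fold change over tested genes was -0.15 with upper-quartile factors, against -0.05 as reported. The directions of the 25 called genes taken by fold, FPKM gap or p held in all 600 combinations with an alternative. The call was lost in 155 of them (22 genes, highest adjusted p 0.301). Genes named only as members of the smaller set were not counted here. AUR62003223 and AUR62010822 were called with DESeq2 alone (adjusted p = 0.0127 and 0.0177).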

Other observations

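Several genes had 0 counts in 1 library of an organ and at least 50 CPM in both others. There were 7 such genes in stem replicate 2, 2 in leaf replicate 2, 1 each in stem replicates 1 and 3, and 0 in the other leaf and the root libraries. The 7 of stem replicate 2 included AUR62002997, next in number to AUR62002998, with 3575, 2252 and 801 FPKM in leaf and 295, 0 and 381 FPKM in stem. AUR62010321 had 1.33, 0.0776 and 1.62 FPKM in leaf and 1277, 0 and 235 FPKM in stem. AUR62007113 had 233, 263 and 86.2 FPKM in leaf and 206, 0 and 281 FPKM in stem. AUR62010251 had 92.7, 0 and 108 FPKM in leaf and 18, 0 and 26.7 FPKM in stem. It thus had 0 in replicate 2 of both organs. None of the 11 genes was called between leaf and stem. They were chosen for these values, and no explanation was tested.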
